A study of Mus musculus with 5 samples.

Results

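SNARE proteins were followed at the transcript level in mouse pancreatic cancer cells sorted by their autophagy flux. The genes were taken by name from the deposited expression table: syntaxins (Stx), VAMP proteins (Vamp), SNAP-23, SNAP-25, SNAP-29 and SNAP-47, the SNAREs Ykt6, Sec22b, Vti1a, Vti1b, Gosr1, Gosr2, Bet1, Bet1l, Use1 and Bnip1, and the disassembly factors Nsf, Napa and Napg. This gave 38 of the 52459 rows of the table. RNA sequencing covered 5 libraries. All came from HY15549, a mouse pancreatic cancer line on a C57BL/6 background that carries GFP-LC3-RFP, a reporter whose green to red ratio reads autophagy flux. Cells grown as organoids in Matrigel were dissociated and sorted into autophagy-high cells (AThi, 2 libraries) and autophagy-low cells (ATlo, 3 libraries). Both groups are therefore the reporter cells of 1 line, and the labels do not say whether replicates were grown as separate cultures. The p-values below therefore describe only how these libraries spread.

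SNAREs are membrane proteins that drive fusion. A helix of an R-SNARE on a vesicle pairs with Q-SNARE helices on the target membrane (classes Qa, Qb and Qc, or Qa with a Qbc protein of the SNAP-25 type), and the bundle pulls both membranes together. The ATPase NSF, with its SNAP adaptors, then takes the bundle apart for reuse. In autophagy, the closed autophagosome fuses with the lysosome through the Qa-SNARE syntaxin 17 with SNAP-29 and the lysosomal R-SNARE VAMP8, and a further route uses the R-SNARE YKT6 on the autophagosome.

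Values are FPKM, by definition fragment numbers divided by transcript length and by library depth. The formula used is not given, so comparing levels of different genes assumes this definition and the lengths behind it. FPKM are relative within a library, and in bulk samples fewer cells expressing a gene and less of its RNA per cell cannot be told apart. Low values placed the depths between 27.6 M reads, in AThi replicate 1, and 44.9 M reads, in AThi replicate 2 (M, 1000000). All 6 epithelial markers checked were expressed, summing to 3511 to 4162 FPKM in AThi and 3717 to 4385 FPKM in ATlo. Markers of immune, fibroblast and endothelial cells summed to at most 0.16 FPKM in any library, with 2 of 5, 3 of 5 and 1 of 4 at 0 in all libraries. Of 5 acinar markers, Cela1 stood at 10.2 to 12.9 FPKM and the other 4 at 0. All 5 cell division markers fell in AThi, with a sum of 13.6 to 14.2 FPKM against 125 to 182 FPKM in ATlo. All 8 immediate-early genes, which respond to cell handling, rose in AThi, with a sum of 2984 to 4683 FPKM against 1010 to 1634 FPKM. Mitochondrially encoded genes held 10.04% and 7.51% of all FPKM in AThi replicates 1 and 2, against 5.53% to 5.98% in ATlo. These moved with the same groups as every change below, and their part in the SNARE results was not tested.

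SNARE transcripts were a mixed set in which some members rose, others fell and most did not pass. Of the 38 genes, 35 reached a mean of 1 FPKM over the libraries and were tested: 9 rose in AThi, 5 fell and 21 did not pass. The test was limma on log2(FPKM + 0.5) over all 11397 genes with that mean, with a Benjamini-Hochberg adjusted p under 0.05. Over all genes tested, 22.2% rose and 29.4% fell, or 51.6% in either direction, against 40.0% of the tested SNARE genes. The SNARE median log2 fold change (AThi minus ATlo) was 0.09, against -0.03 for all genes tested. Libraries of AThi and ATlo did not overlap in 25 of the 35, or 71.4%, where the share over all genes tested was 70.3%. Snap25 lay below the filter and is not among the 35, with means of 0.42 FPKM in AThi and 1.12 FPKM in ATlo (ratio 0.376). None of the 14 changes reached a fold of 2 (0 of 35 tested, against 6.55% of all genes), and their absolute log2 fold changes ran between 0.21 and 0.67. Of these, 5 rises and 3 falls passed with any 1 library left out: Stx17, Stx3, Use1, Vamp1 and Vamp2, and Ykt6, Vamp3 and Nsf. Without AThi replicate 1, and also without ATlo replicate 2, the number of rises was 5.

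**Figure D1:**
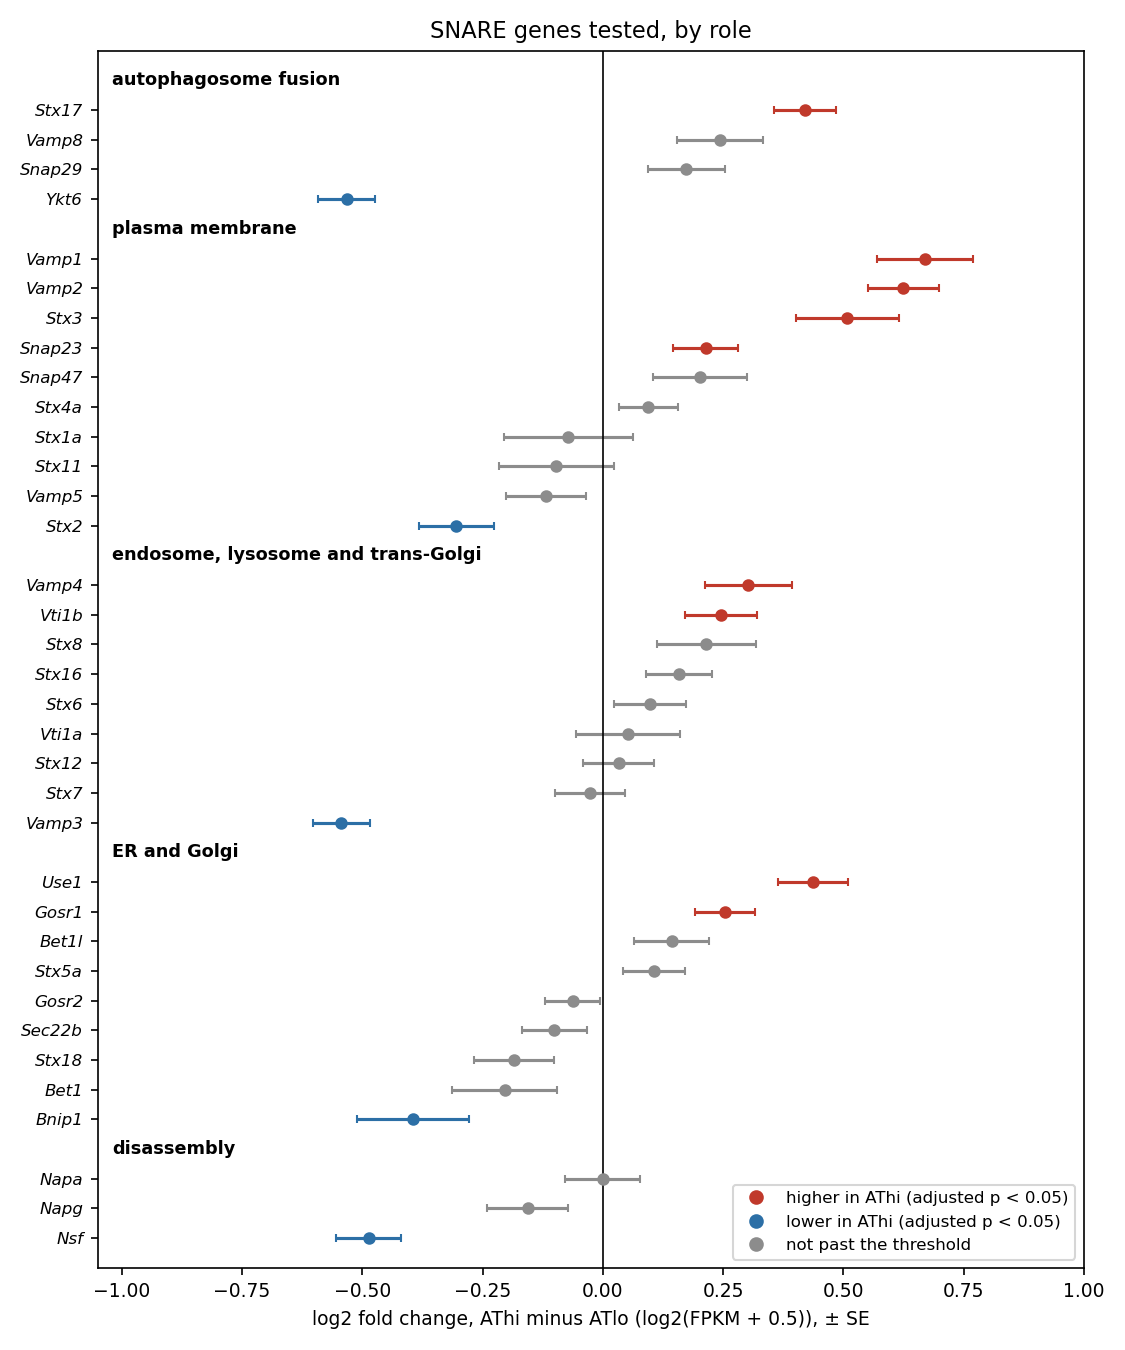
Log2 fold change (AThi minus ATlo, on the log2(FPKM + 0.5) scale) with its standard error for the 35 SNARE genes tested, grouped by role. Red points rose, blue points fell and grey points did not pass an adjusted p of 0.05, and each role holds grey points beside at least 1 coloured point.

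Levels spanned a wide range among the members. Vamp8, the lysosomal R-SNARE, had the highest mean over the 5 libraries at 55.6 FPKM, followed by Ykt6 at 43.9, Use1 at 43.1 and Vti1b at 38.1 FPKM. The order at the top differed between the groups. In AThi it ran Vamp8, Use1, Vti1b and Ykt6, with library values that did not overlap between neighbours, whereas in ATlo Vamp8 (47.2 to 57.3 FPKM) and Ykt6 (48.5 to 51.2 FPKM) overlapped, and so did Use1 and Vti1b. In all, 20 members had a mean of at least 10 FPKM. At the other end, Stx19 was listed at 0 in all 5 libraries, and a floor of 3 reads for its length allows up to 0.0387 FPKM in the shallowest (counting error only).

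**Figure D2:**
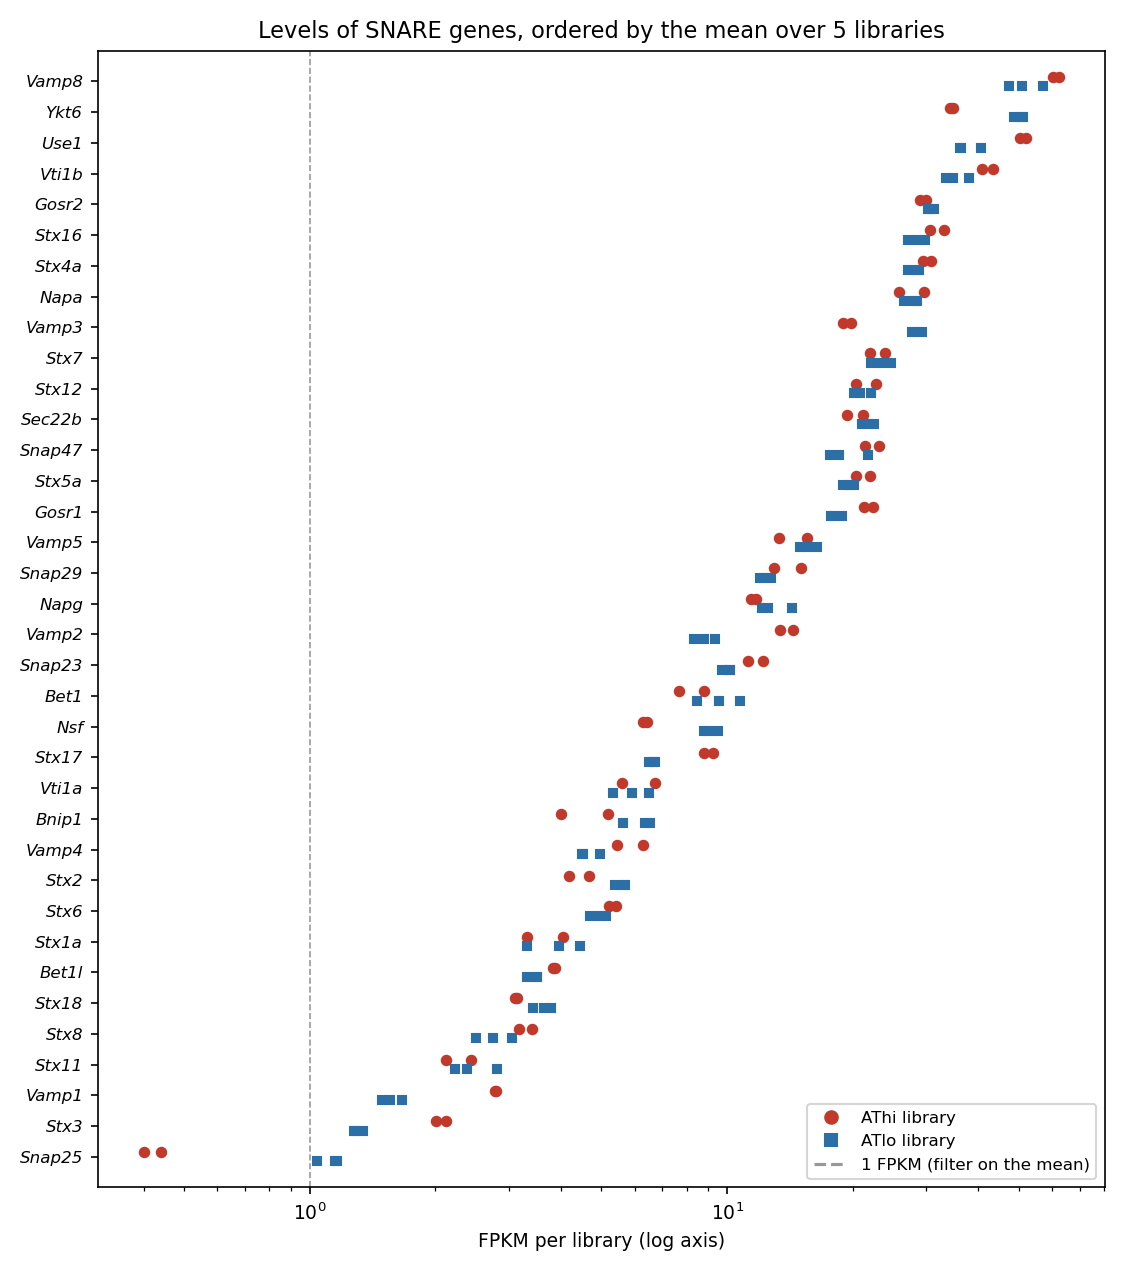
FPKM in each library on a log axis for the 36 SNARE genes that averaged 0.1 FPKM or more, ordered by that mean over the 5 libraries (red circles AThi, blue squares ATlo). Vamp8 and Ykt6 lead, 20 members average at least 10 FPKM, and Snap25 has both AThi libraries below and all 3 ATlo libraries above the dashed line of 1 FPKM used as a filter on the mean.

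The genes of autophagosome fusion did not move as a unit. Stx17 rose in AThi, Ykt6 fell, and Snap29 and Vamp8 did not pass the test. Stx17, the gene of the Qa-SNARE recruited to closed autophagosomes, had 9.27 and 8.81 FPKM in the AThi libraries, against 6.51, 6.65 and 6.71 FPKM in the ATlo libraries. Both AThi libraries lay above every ATlo library, and the log2 fold change was 0.42 ± 0.06 (SE) with an adjusted p of 0.0019. Ykt6, the gene of a lipid-anchored R-SNARE used on autophagosomes and in the Golgi, had 34.8 and 34.3 FPKM in AThi, against 48.5, 51.2 and 50.8 FPKM in ATlo. Here both AThi libraries lay below every ATlo library, and the change was -0.53 ± 0.06 (SE) with an adjusted p of 0.000509. The ratio of Ykt6 to Stx17 was 3.75 and 3.89 in AThi libraries, against 7.46, 7.70 and 7.57 in ATlo libraries. Both genes passed in each of the 14 alternative fits.

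Vamp8, the lysosomal partner of Stx17, had 62.4 and 60.2 FPKM in AThi, against 57.3, 51.0 and 47.2 FPKM in ATlo. The groups did not overlap, but the ATlo libraries spread over about as wide a range as the distance between the groups, and the log2 fold change of 0.24 ± 0.09 (SE) had an adjusted p of 0.0548. This side of the threshold was not stable, since the adjusted p was 0.0281 after rescaling to TPM, 0.0490 with a minimum mean of 5 FPKM and 0.0134 without ATlo replicate 1. Snap29, the Qbc-SNARE of both fusion routes, had 15.04 and 12.95 FPKM in AThi, against 12.71, 11.97 and 12.28 FPKM in ATlo. Its groups did not overlap either. AThi replicate 1 stood above the rest and AThi replicate 2 close to ATlo, giving 0.17 ± 0.08 (SE) with an adjusted p of 0.107, and 0.28 with an adjusted p of 0.0405 without AThi replicate 2. Summed over the 4 genes, the level was 121 and 116 FPKM in AThi, against 125, 121 and 117 FPKM in ATlo, and these ranges overlapped. Vamp8 and Ykt6 are the largest terms of this sum and their changes had opposite signs, so the overlap does not show that its members were unchanged. Replicates 1 and 2 occur in both groups, and their library codes share leading digits. Between libraries of the same number, the log2 difference (AThi minus ATlo) was 0.48 and 0.38 for Stx17, 0.23 and 0.11 for Snap29, 0.12 and 0.24 for Vamp8, and -0.47 and -0.57 for Ykt6. For all 14 SNARE genes past the threshold the groups did not overlap, so both same-number differences could only keep the direction of the call.

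**Figure D3:**
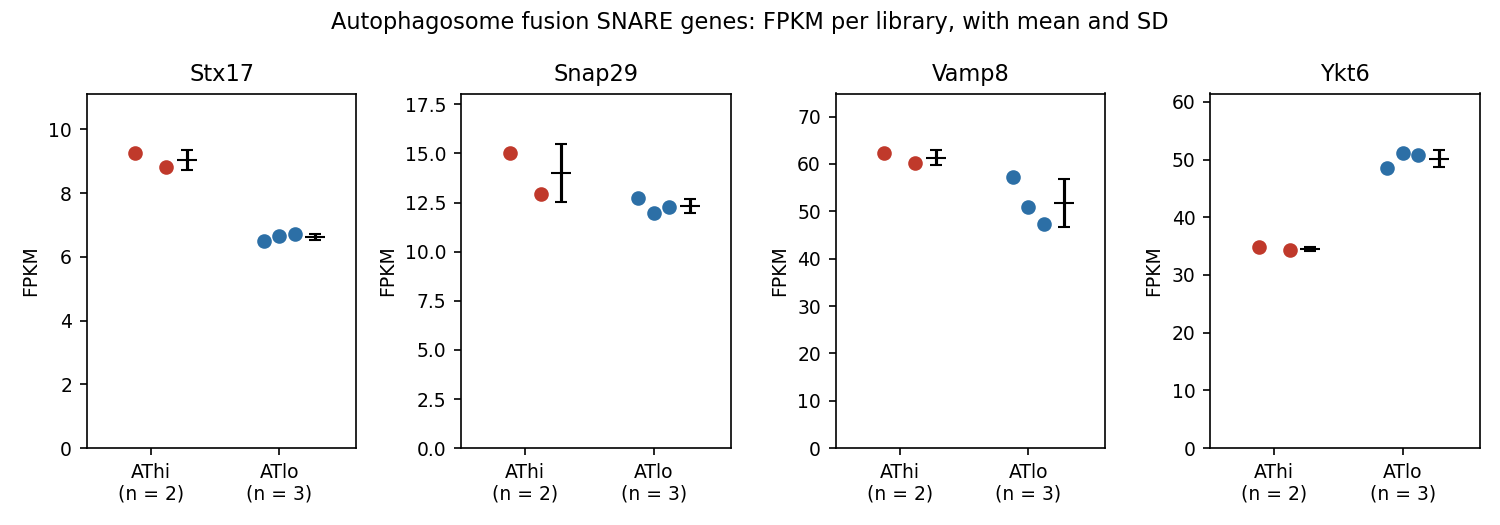
FPKM in each library for Stx17, Snap29, Vamp8 and Ykt6 (red AThi, blue ATlo), with the group mean and SD to the right of the points and every axis starting at 0. The groups separate upward for Stx17 (9.27 and 8.81 FPKM in AThi, against 6.51 to 6.71 FPKM in ATlo) and downward for Ykt6 (34.8 and 34.3 FPKM, against 48.5 to 51.2 FPKM). Snap29 and Vamp8 also lie higher in AThi without overlap, but did not pass the test.

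The promoters of Stx17 and Ykt6 are shown because these genes of 1 fusion step moved in opposite directions, and that of Nsf because it is the member with a clear fall that holds an E-box. Each run is 300 bases from RefSeq on GRCm38.p6, written 5′ to 3′ on the strand of the gene, from 250 bases before its start. They lie at chr4:48124669-48124968 (Stx17, plus strand), chr11:5955508-5955807 (Ykt6, plus strand) and chr11:103954007-103954306 (Nsf, minus strand). Capitals mark matches to the motifs searched on both strands: CACGTG (the E-box at the centre of the CLEAR element), ACGTG (the core of the hypoxia response element, contained in CACGTG), CCGGAAGT (an ETS site), GGGCGG (a GC box), and TTTCGCGC and TTTGGCGC (E2F sites).
Stx17: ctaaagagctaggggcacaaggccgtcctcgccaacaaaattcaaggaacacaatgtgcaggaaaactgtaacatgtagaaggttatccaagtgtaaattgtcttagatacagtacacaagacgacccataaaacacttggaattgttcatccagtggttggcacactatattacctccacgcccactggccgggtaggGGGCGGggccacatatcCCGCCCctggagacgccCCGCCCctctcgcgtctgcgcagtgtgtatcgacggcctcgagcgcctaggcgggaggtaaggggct
Ykt6: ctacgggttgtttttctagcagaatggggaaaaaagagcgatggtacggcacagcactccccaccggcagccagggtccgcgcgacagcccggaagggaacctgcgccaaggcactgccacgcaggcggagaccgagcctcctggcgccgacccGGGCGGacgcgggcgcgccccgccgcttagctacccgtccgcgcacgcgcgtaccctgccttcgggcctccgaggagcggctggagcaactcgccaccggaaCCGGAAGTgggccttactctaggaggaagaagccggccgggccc
Nsf: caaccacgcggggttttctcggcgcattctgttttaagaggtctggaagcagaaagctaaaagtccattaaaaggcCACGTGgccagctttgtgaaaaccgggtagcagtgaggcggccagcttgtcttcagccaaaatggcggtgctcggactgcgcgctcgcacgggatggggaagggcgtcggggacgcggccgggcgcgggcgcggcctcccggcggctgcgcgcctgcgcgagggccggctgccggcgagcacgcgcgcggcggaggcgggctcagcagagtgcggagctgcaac
The Stx17 run holds 3 GC boxes, beginning 51, 34 and 17 bases before the start, and no match to the other motifs. The Ykt6 run holds a GC box 96 bases before and an ETS match 6 bases after the start. The Nsf run holds a CACGTG 174 bases before the start. Promoters were found for 33 of the 38 members, 40 runs in all. CACGTG was present in those of 5 members (Bnip1, Napa, Nsf, Stx6 and Vamp4), or 5 of 40 runs, and in 7.15% of all 32851 promoters of that length. These members include falls (Bnip1, Nsf), a rise (Vamp4) and genes that did not pass (Napa, Stx6). ACGTG was present in 9 of the 40 runs and in 19.6% of all promoters, the ETS motif in 3 and in 3.89%, and the GC box in 25 and in 35.7%. The set of all promoters was not limited to genes expressed in these libraries, and differences from it were not tested. Of the E2F motifs, TTTCGCGC matched 0 of the 40 runs and 0.323% of all promoters, and TTTGGCGC matched 1, that of Vti1b, and 0.514%. A match is a run of letters and does not show that a factor binds there.

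Among SNAREs of the plasma membrane, the R-SNARE genes Vamp1 and Vamp2 and the syntaxin gene Stx3 rose, while Stx2 fell. Of the 13 genes, 10 were tested, and 4 rose, 1 fell and 5 did not pass. The shares over all genes tested were 22.2% risen and 29.4% fallen. Vamp2, the gene of synaptobrevin 2, which serves regulated and constitutive secretion, had 13.4 and 14.4 FPKM in AThi, against 9.36, 8.82 and 8.32 FPKM in ATlo. Its close relative Vamp1 had 2.78 and 2.80 FPKM in AThi, against 1.66, 1.56 and 1.49 FPKM in ATlo. In both genes the groups were well separated, with log2 fold changes of 0.62 ± 0.07 and 0.67 ± 0.10 (SE) and adjusted p-values of 0.000673 and 0.00169, and Vamp1 had the largest change of any SNARE gene tested. Vamp3, the gene of cellubrevin, an R-SNARE of recycling endosomes closely related to both, went the other way. It had 19.8 and 19.0 FPKM in AThi, against 27.7, 28.6 and 29.2 FPKM in ATlo, a change of -0.54 ± 0.06 (SE) with an adjusted p of 0.000507. The ratio of Vamp2 to Vamp3 was 0.676 and 0.756 in AThi libraries, against 0.338, 0.308 and 0.285 in ATlo libraries. Vamp3 made up 55.0% and 52.5% of the summed FPKM of Vamp1, Vamp2 and Vamp3 in AThi, against 71.6% to 74.9% in ATlo. That sum itself differed little, at 36.0 and 36.1 FPKM in AThi, against 38.8 to 39.0 FPKM in ATlo, without overlap.

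**Figure D4:**
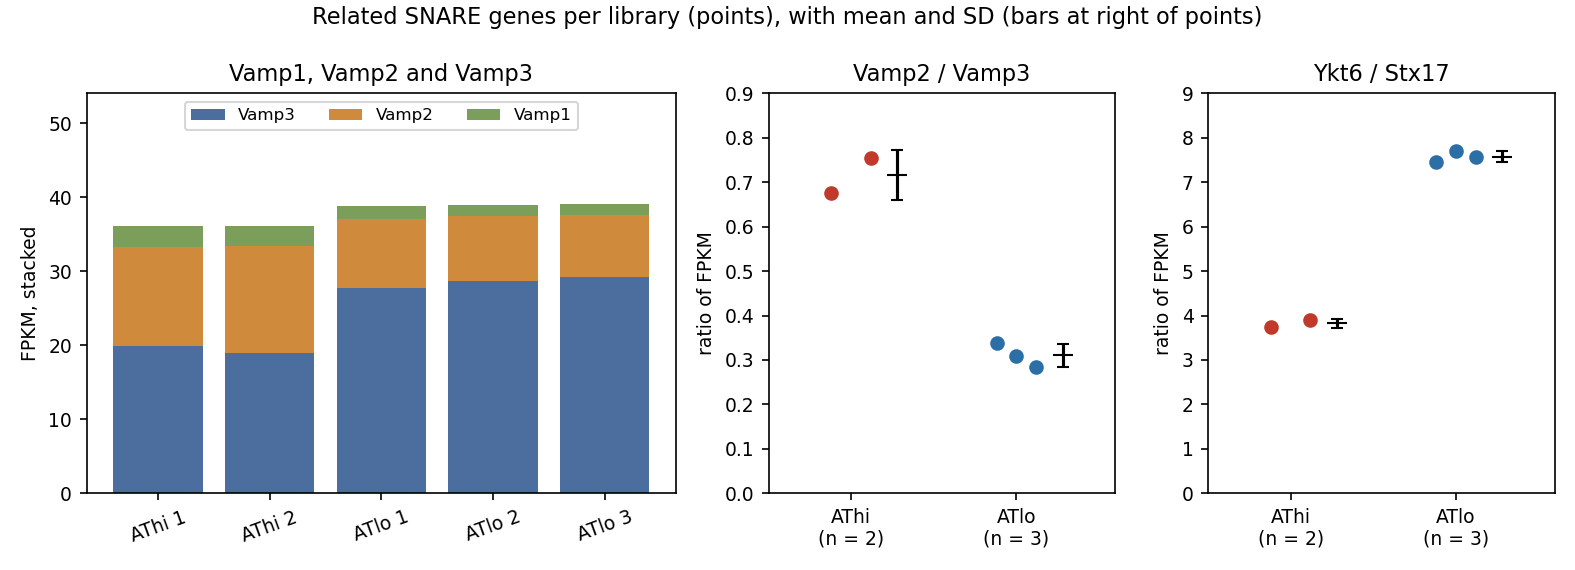
Left, stacked FPKM of Vamp3, Vamp2 and Vamp1 in each library. Middle and right, the ratio of Vamp2 to Vamp3 and of Ykt6 to Stx17 per library, with group mean and SD. Vamp3 falls to 52.5% to 55.0% of the stack in AThi, against 71.6% to 74.9% in ATlo, and the Ykt6 to Stx17 ratio is 3.75 and 3.89 in AThi, against 7.46 to 7.70 in ATlo.

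Stx3, the gene of an apical syntaxin of epithelial cells, had 2.12 and 2.01 FPKM in AThi, against 1.28, 1.34 and 1.29 FPKM in ATlo. This was a change of 0.51 ± 0.11 (SE), adjusted p 0.00718, in a gene near the filter of 1 FPKM. Stx2 had 4.67 and 4.19 FPKM in AThi, against 5.70, 5.38 and 5.67 FPKM in ATlo, a change of -0.30 ± 0.08 (SE) with an adjusted p of 0.0159. Its call was lost without AThi replicate 2, with an adjusted p of 0.0950. The most abundant plasma membrane syntaxin gene, Stx4a, had 29.5 and 30.9 FPKM in AThi, against 27.2 to 28.8 FPKM in ATlo, and missed the threshold (adjusted p 0.233). The sum of Stx2, Stx3 and Stx4a was 36.2 and 37.1 FPKM in AThi, against 34.1 to 35.6 FPKM in ATlo. Snap23, the Qbc partner of these syntaxins outside neurons, had 12.2 and 11.2 FPKM in AThi, against 9.70, 10.2 and 10.2 FPKM in ATlo. It rose by 0.21 ± 0.07 (SE), adjusted p 0.0347. This was the smallest change past the threshold, and it passed in only 1 of the 5 leave-one-library-out fits, the one without AThi replicate 2. In the other 4 its adjusted p was 0.0646 to 0.175. Snap47 had 23.1 and 21.4 FPKM in AThi, against 21.8, 18.6 and 17.7 FPKM in ATlo, with overlap. It did not pass (0.20, adjusted p 0.122), but did without ATlo replicate 1, the highest ATlo library (0.29, adjusted p 0.0197). Vamp5, Stx11 and Stx1a did not pass either, with log2 fold changes of -0.12, -0.10 and -0.07.

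Snap25, the Qbc-SNARE gene of neurons and endocrine cells, lay below the filter with a mean of 0.838 FPKM. It had 0.40 and 0.44 FPKM in AThi, against 1.16, 1.15 and 1.04 FPKM in ATlo, well above the 3-read level of at most 0.016 FPKM for its length. The groups were far apart relative to their spread, and in the fit with no filter on low values the log2 fold change was -0.81 ± 0.11 (SE) with an adjusted p of 0.00926. On the pseudocount scale this understates the difference, since the AThi libraries averaged 0.42 ± 0.03 FPKM (SD, n = 2) and the ATlo libraries 1.12 ± 0.07 FPKM (SD, n = 3). The 7 neuronal and endocrine markers summed to 0.20 and 0.32 FPKM in AThi, against 0.32 to 0.34 FPKM in ATlo, with 3 of them, Ins1, Ins2 and Gcg, at 0 in every library.

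Of the 9 SNARE genes of endosomes, lysosomes and the trans-Golgi, 2 rose, 1 fell (Vamp3, above) and 6 did not pass. Among all genes tested, 22.2% rose and 29.4% fell. Vti1b, a Qb-SNARE that acts with syntaxin 7, syntaxin 8 and VAMP8 in late endosome fusion, had 43.4 and 40.8 FPKM in AThi, against 38.0, 34.8 and 33.5 FPKM in ATlo. The groups were close but did not overlap, and the rise of 0.25 ± 0.07 (SE) had an adjusted p of 0.0294. That call was kept in 1 of the 5 leave-one-library-out fits, the one without ATlo replicate 1, and the adjusted p was 0.0589 to 0.142 in the other 4. Exons of Vti1b share 17.7% of their length with Arg2 on the opposite strand, which was at 0.04 to 0.13 FPKM. Its partners Stx7 and Stx8 did not pass, with changes of -0.03 ± 0.07 and 0.22 ± 0.10 (SE). Stx7 had 23.8 and 22.1 FPKM in AThi, against 22.1 to 24.8 FPKM in ATlo, and Stx8 averaged 3.29 ± 0.16 FPKM in the AThi libraries (SD, n = 2) and 2.77 ± 0.28 FPKM in the ATlo libraries (SD, n = 3).

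Vamp4, an R-SNARE of the trans-Golgi, had 6.29 and 5.44 FPKM in AThi, against 4.51, 4.48 and 4.97 FPKM in ATlo. It rose by 0.30 ± 0.09 (SE), adjusted p 0.0278, and passed in 2 of the 5 leave-one-library-out fits, those without AThi replicate 2 and without ATlo replicate 3. Its adjusted p was 0.164 without AThi replicate 1, 0.0635 without ATlo replicate 1 and 0.0864 without ATlo replicate 2. Its trans-Golgi partners Stx16, Stx6 and Vti1a did not pass, with changes of 0.16 ± 0.07, 0.10 ± 0.07 and 0.05 ± 0.11 (SE). The recycling endosome syntaxin gene Stx12 was at 22.7 and 20.4 FPKM in AThi, against 20.2 to 22.1 FPKM in ATlo, with overlap. Vamp7, a further lysosomal R-SNARE gene, was not analysed here. Vamp7-ps, annotated in GENCODE M21 as a processed pseudogene on chromosome 2 (174046619 to 174047273, minus strand), had 45.0 and 45.4 FPKM in AThi, against 45.9, 48.8 and 51.8 FPKM in ATlo, and did not pass (adjusted p 0.232). GENCODE M21 holds 0 genes named Vamp7, and whether these reads come from Vamp7 was not tested.

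In the early secretory pathway, members of 1 complex moved apart. Of the 9 SNARE genes of the ER and Golgi, 2 rose, 1 fell and 6 did not pass, where 22.2% of all genes tested rose and 29.4% fell. Use1, a Qc-SNARE of transport back to the ER, had 50.3 and 52.0 FPKM in AThi, against 40.7, 36.4 and 36.1 FPKM in ATlo. Both AThi libraries exceeded every ATlo library, with a rise of 0.44 ± 0.07 (SE) and an adjusted p of 0.00281. Bnip1, the Qb-SNARE of the same complex (Sec20 in yeast), had 4.01 and 5.19 FPKM in AThi, against 5.64, 6.35 and 6.52 FPKM in ATlo. AThi replicate 1 was the lowest library and AThi replicate 2 lay near ATlo, and the change of -0.39 ± 0.12 (SE) had an adjusted p of 0.0273. Without AThi replicate 1 it was -0.23 with an adjusted p of 0.154, and the call was also lost without ATlo replicate 2 (adjusted p 0.0729), without ATlo replicate 3 (0.0674), after rescaling to TPM (0.0545) and with no filter (0.0878). The Qa-SNARE gene of this complex, Stx18, had 3.10 and 3.14 FPKM in AThi, against 3.43 to 3.78 FPKM in ATlo, a change of -0.18 ± 0.08 (SE) that did not pass, and its R-SNARE gene Sec22b changed by -0.10 ± 0.07 (SE), which did not pass either.

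Gosr1, a Qb-SNARE of transport within the Golgi, had 22.4 and 21.3 FPKM in AThi, against 18.1, 17.8 and 18.9 FPKM in ATlo. It rose by 0.25 ± 0.06 (SE), adjusted p 0.0128, and missed the threshold without AThi replicate 1 and without ATlo replicate 2, with adjusted p-values of 0.0693 and 0.0591. Its complex partners are Stx5a, Bet1l and Ykt6, and Stx5a and Bet1l had changes of 0.11 ± 0.06 and 0.14 ± 0.08 (SE) that did not pass, beside the fall of Ykt6. Of the SNAREs that carry cargo from the ER to the Golgi, Gosr2 averaged 29.5 ± 0.68 FPKM in the AThi libraries (SD, n = 2) and 30.8 ± 0.54 FPKM in the ATlo libraries (SD, n = 3), and Bet1 had 8.79 and 7.66 FPKM in AThi, against 8.46 to 10.7 FPKM in ATlo. Neither passed.

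The disassembly ATPase gene Nsf fell. It had 6.43 and 6.30 FPKM in AThi, against 8.80, 9.51 and 9.07 FPKM in ATlo, with both AThi libraries below every ATlo library. The log2 fold change was -0.49 ± 0.07 (SE), with an adjusted p of 0.00118, and it passed in each of the 14 alternative fits. The genes of its adaptors did not pass. Napa, the gene of alpha-SNAP, had 25.9 and 29.6 FPKM in AThi, against 26.5 to 28.5 FPKM in ATlo, with overlap, and Napg, the gene of gamma-SNAP, had 11.8 and 11.4 FPKM, against 12.1 to 14.3 FPKM. Napb, the gene of the beta-SNAP of neurons, is not among the 38. It rose by 0.41 ± 0.13 (SE), at 1.74 and 2.01 FPKM in AThi, against 1.19 to 1.44 FPKM in ATlo, and passed in 1 of the 5 leave-one-library-out fits, the one without ATlo replicate 2, with adjusted p-values of 0.0607 to 0.169 in the others.

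The counts by SNARE class stand beside shares of 22.2% risen and 29.4% fallen over all genes tested. All 8 R-SNARE genes among the members were tested, and 3 rose (Vamp1, Vamp2, Vamp4) and 2 fell (Vamp3, Ykt6). Vamp7 is not in these counts, nor in the sums and shares below. Of the 11 tested Qa genes, 2 rose and 1 fell. Of the 5 Qb genes, 2 rose and 1 fell, of the 5 Qc genes 1 rose, and of the 3 tested Qbc genes 1 rose. The Qc genes summed to 71.3 and 72.3 FPKM in AThi, against 56.7 to 60.8 FPKM in ATlo, where Use1 is the largest member. R-SNARE genes summed to 176 and 169 FPKM in AThi, against 179 to 187 FPKM in ATlo, or 31.6% and 31.2% of the summed FPKM of the 35 SNAREs (disassembly factors left out), against 34.4% to 35.2%. All 38 genes together held 0.207% and 0.204% of a library's summed FPKM in AThi, against 0.193% to 0.194% in ATlo.

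Partners of the SNAREs were counted in the same way. The shares over all genes tested were 22.2% risen and 29.4% fallen. Of 8 Sec1/Munc18 genes, whose products clasp SNARE bundles, 1 rose and 7 did not pass. The riser, Stxbp2 (Munc18-2, a partner of syntaxin 3), had 52.4 and 56.6 FPKM in AThi, against 44.5 to 48.4 FPKM in ATlo, a change of 0.24 ± 0.07 (SE) with an adjusted p of 0.0237, and it passed in 2 of the 5 leave-one-library-out fits, those without AThi replicate 1 and without ATlo replicate 1, with adjusted p-values of 0.0668 to 0.128 in the others. Of 11 tethers and adaptors of autophagosome to lysosome fusion, 4 rose and 7 did not pass. The largest were Atg14, which binds syntaxin 17, at 0.59 ± 0.07 (SE), and the HOPS tether subunits Vps18 at 0.47 ± 0.12 and Vps11 at 0.40 ± 0.07 (SE). The call of Vps18 was lost without AThi replicate 1 and without AThi replicate 2, with adjusted p-values of 0.0948 and 0.0640. Of 9 other SNARE regulators tested, 3 rose and 6 did not pass: Unc13a, a priming factor of secretory vesicles, by 0.65 ± 0.16 (SE), Napb as above, and Stxbp6, the gene of amisyn, by 0.38 ± 0.09 (SE). Unc13a had 7.21 and 10.86 FPKM in AThi, against 4.99 to 5.74 FPKM in ATlo, and its change was 0.37 without AThi replicate 2, with an adjusted p of 0.0487. With no filter on low values its adjusted p was 0.0606. The call of Stxbp6 was lost without AThi replicate 1, at 0.31 with an adjusted p of 0.0834.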

How the data were processed

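The authors deposited 1 table of FPKM with a column per library, rounded to 2 decimals. Per the submitters' processing notes, bcl2fastq, STAR, featureCounts and DESeq2 were used with the builds mm10 and GRCm38. Their versions and settings (annotation release, strand, FPKM formula) are not given in the sources used. No column of counts was used. Of 52459 rows, 28341 were 0 in all 5 libraries, and in 26 rows a number stood in place of the symbol.

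For each gene averaging 1 FPKM or more, AThi was compared with ATlo by limma 3.58.1 in R 4.3.3 (lmFit, eBayes with trend) on log2(FPKM + 0.5). The test was two-sided, with no term but group, and p-values were adjusted by Benjamini-Hochberg over all 11397 genes. The scale understates changes of low genes. The fit had 3 residual degrees of freedom. Depth was read from single-exon genes of up to 200 bases, where the product of FPKM and length takes whole multiples of a library's value of 1 read (within 0.1 of that value in 100% of 325 to 407 values per library). Lengths and positions are from GENCODE M21 (GRCm38, 1-based), where all 38 members matched 1 gene. Floors of 3 reads cover counting error only.

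The members, lists, motifs and roles were chosen with earlier results of these data known. Library values are given for the autophagosome fusion genes and for each other member past the threshold (up to 12). From each partner list at most the 3 largest changes past the threshold in each direction are named. Genes of other lists and Snap25, Vamp7-ps and Stx19 are given for their level, with test results for some of them. The values of 1 further member are not reported here.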

Additional observations from a re-analysis of the deposited data

How the results depend on the processing

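The 14 alternatives were 2 pseudocounts, 2 filters, 2 scalings, 2 forms of moderation, the replicate block and each library left out. Of the 14 calls, 8 (Stx17, Stx3, Use1, Vamp1, Vamp2, Ykt6, Vamp3 and Nsf) held in every fit that tested the gene. No called SNARE gene changed direction, but as their groups did not overlap, only the 2 scalings could have changed it. With a library left out, 5 to 9 SNARE genes rose and 4 or 5 fell, and where 1 AThi sample remained it was assumed to vary like ATlo. The fits without AThi replicate 1 and without ATlo replicate 2 gave 5 rises each. The labels state no pairing, and the replicate numbers shared by both groups were tried as a block: it gave 7 rises and 5 falls, with Snap23 and Vti1b at adjusted p-values of 0.0579 and 0.0546. Deviations from the group means correlated at 0.20 and 0.30 between same-numbered libraries. With 2 AThi libraries these deviations are mirror images, so the values are not independent and do not show a pairing. Vamp8 passed with a minimum mean of 5 FPKM (0.24, adjusted p 0.0490) and after rescaling to TPM (0.28, adjusted p 0.0281), and ranged from 0.18 to 0.32 with a library left out. Snap29 ranged from 0.070 to 0.28. With no filter on low values, Snap23, Vti1b, Vamp4 and Bnip1 missed the threshold (adjusted p 0.0552 to 0.0878). So did the partners Vps18, Napb and Unc13a, and the risen tether not named above (0.0606 to 0.0893). The log2 fold changes of these genes were the same with and without the filter. The fit with no filter held 24118 genes against 11397, and its variance moderation differed too. The part of each in the lost calls was not tested. Signs changed in genes near 0 that passed no fit: Stx1a was 0.016 with the replicate block and ranged from -0.20 to 0.054 with a library left out. Stx7 was 0.0093 after rescaling to TPM and 0.014 with the block, and ranged from -0.082 to 0.028. Napa was 0.036 after rescaling to TPM and ranged from -0.096 to 0.095, Stx12 from -0.044 to 0.11 and Vti1a from -0.068 to 0.17.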
